A study of Mus musculus with 2 samples.

Results

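The eosinophil progenitors described here are the 62 cells that the deposited annotation places in its Prg2 class, of 14795 cells in all. They were chosen by that class name alone, pooled over both libraries for the comparison with other classes and then taken apart by library. Control held 37 of them among 6906 cells, and the library labelled Runx1 KO held 25 among 7889.

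Single-cell RNA was counted with the 10x Genomics 3′ version 3 kit as unique molecular identifiers (UMIs), each of which stands for 1 captured RNA molecule. The cells came from the hind limb bone marrow of C57BL/6 mice and were sorted as Lineage-, c-Kit+ and Sca1-, the gate called LKS- in the labels, which holds committed blood progenitors. The Control library pooled the LKS- cells of a Runx1f/f mouse with those of a Runx1f/- mouse, so the floxed allele was present in both Control animals and 1 of them also carried a germline mutation on 1 allele. The other library carries the genotype label Runx1 KO; how many mice it came from, which Cre made the deletion and how old the mice were is not stated in the labels, and 1 label field speaks of embryos where the others name marrow. Each genotype had 1 library, so no test between them was possible. All intervals below are exact 95% intervals that cover counting error only, not the spread between mice. Those of gene levels and gene ratios count each UMI as independent, so they also leave out the spread between cells.

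Eosinophils are granulocytes that arise in the bone marrow from myeloid progenitors under the transcription factors GATA-1, PU.1 and the C/EBP family, and expand in response to interleukin 5. While still progenitors they begin to fill their granules with cationic proteins that act against parasites and can injure tissue: major basic protein, encoded by Prg2, its homolog encoded by Prg3, eosinophil peroxidase, encoded by Epx, and, in mice, a family of eosinophil-associated ribonucleases encoded by the Ear genes. Runx1 encodes a transcription factor that acts in blood progenitors of many lineages.

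The windows around the start sites of the granule genes that set the class apart are shown because the libraries differed in opposite directions within this group. They are from RefSeq on GRCm38.p6, run from 250 bases before the annotated start to 50 bases after it, and are printed 5′ to 3′ on the gene's strand, with each GATAA, on either strand, in capitals, where TTATC is the same motif on the other strand. GATAA is the core of the motif that GATA factors recognise.
Prg3 at chr2:84987965-84988264, plus strand: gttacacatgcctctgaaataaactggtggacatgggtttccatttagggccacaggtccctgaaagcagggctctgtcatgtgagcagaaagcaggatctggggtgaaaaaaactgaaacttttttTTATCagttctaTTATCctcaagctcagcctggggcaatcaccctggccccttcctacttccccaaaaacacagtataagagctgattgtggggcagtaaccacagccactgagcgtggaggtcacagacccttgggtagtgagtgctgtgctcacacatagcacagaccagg
Epx at chr11:87875487-87875786, minus strand: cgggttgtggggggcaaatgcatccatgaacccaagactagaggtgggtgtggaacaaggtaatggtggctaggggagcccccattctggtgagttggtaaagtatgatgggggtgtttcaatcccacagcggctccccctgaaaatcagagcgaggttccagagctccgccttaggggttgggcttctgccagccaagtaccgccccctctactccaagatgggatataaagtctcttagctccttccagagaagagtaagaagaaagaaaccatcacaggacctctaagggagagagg
Ear6 at chr14:51853518-51853817, plus strand: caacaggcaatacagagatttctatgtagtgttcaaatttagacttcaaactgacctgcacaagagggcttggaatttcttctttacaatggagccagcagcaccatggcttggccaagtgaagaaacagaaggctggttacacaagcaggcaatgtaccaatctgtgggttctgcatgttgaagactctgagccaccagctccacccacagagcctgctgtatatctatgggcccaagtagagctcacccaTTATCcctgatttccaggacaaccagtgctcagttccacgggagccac
Ear1 at chr14:43819590-43819889, minus strand: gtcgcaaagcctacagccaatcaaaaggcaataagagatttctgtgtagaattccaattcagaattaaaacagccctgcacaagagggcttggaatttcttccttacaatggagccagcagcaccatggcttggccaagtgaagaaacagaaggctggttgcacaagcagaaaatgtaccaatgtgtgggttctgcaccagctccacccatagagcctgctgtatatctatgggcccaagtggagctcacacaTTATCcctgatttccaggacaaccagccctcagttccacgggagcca
The Prg3 window held 2 matches, the Ear6 and Ear1 windows 1 each and the Epx window 0, where 25.4% of 32851 windows of the same length held at least 1. A match is a description of letters and not of a bound site. Ear6 and Ear1 matched at 92.8% of 279 aligned bases of these windows, while Ear6 and Epx matched at 54.4%. Prg2 (chr2:84980461-84983632, plus strand) and Cebpe (chr14:54710360-54712174, minus strand), placed by GENCODE M21 on GRCm38, have no window in that table.

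The name of the class was checked against its 5 markers. All 62 cells had Prg2 UMIs, from 20 to 1739 per cell in Control with a median of 492, and from 44 to 882 with a median of 219 in the library labelled Runx1 KO. In Car1 class cells, which are erythroid progenitors and should lack the gene, 5.57% of Control cells and 3.63% of cells of the other library had a Prg2 UMI, with at most 6 and 2 UMIs in any cell. Median depth in the Car1 class was 15394 and 14621 UMIs, close to the 15171 and 15683 of the Prg2 class. The Prg2 UMIs of the class thus lay above the Car1 class in every cell, with the lowest cell of the class at 20 UMIs. They did not lie above every cell of classes more like it. Gstm1/CD63 had Prg2 in 11.3% and 8.98% of cells, with up to 284 and 338 UMIs. The Prss34 class of Control had it in 7.42%, with up to 107. The class is named for Prg2, so its presence describes the class and tests nothing. In the Prg2 class, Prg3 UMIs were found in 37 of 37 and 25 of 25 cells, Cebpe in 36 and 25, Epx in 35 and 17, and Ear6 in 14 and 18. Ccr3, the eotaxin receptor of mature eosinophils, had 1 UMI in Control and 0 in the other library, which is at or near 0. Il5ra, the interleukin 5 receptor chain, was found in 7 cells of each library, at 16.4 and 28.0 CPM, with at most 0.266 CPM in any other class compared. The class thus carried the granule markers, a low level of the interleukin 5 receptor and almost no Ccr3.

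As a share of all cells, the class made up 0.536% of Control (0.378 to 0.738) and 0.317% of the library labelled Runx1 KO (0.205 to 0.467). The ratio of the shares was 0.591, with an interval of 0.341 to 1.01 that includes no difference. Shallow cells were more common in the class than in its libraries. Cells under 5000 UMIs were 7 of 37 (18.9%) in Control and 8 of 25 (32.0%) in the other library, against 6.73% and 4.39% of all cells of the libraries. A further setting, added after the data were seen, left the cells under 5000 UMIs out of the class and of the libraries. The ratio was then 0.484 (0.25 to 0.906), an interval below 1. A share also depends on the size of the other classes, and Pf4 class cells made up 3.21% of Control and 22.6% of the other library. The part of the Pf4 class in these ratios was not tested. The libraries shared 13 cell barcodes, 0 of them in the class.

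Against the other classes, the granule genes set these cells apart by the widest margins. Levels are given as CPM, the UMIs of a gene summed over the cells of a class, per 1000000 UMIs of that sum, and the other classes compared are those with at least 50 cells in the library, 11 in Control and 9 in the library labelled Runx1 KO. The classes are the authors' own, and the genes they were made from are not stated, so this comparison describes the class and tests nothing. Of 5476 genes measured over the classes, 15 (0.274%) were at least 4-fold above the mean of the other classes in both libraries. These values were computed on log2(CPM + 10), and 9 of the 15 were also at least 2-fold above the highest other class in both libraries.

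The first group, the 9 genes at least 2-fold above every other class, holds 5 genes of the granule list and 4 others. Prg2 stood at 28839 CPM in Control and 19345 in the library labelled Runx1 KO, against 71.2 and 99.7 CPM in Gstm1/CD63, the neutrophil progenitor class that was the next highest in both. Prg3, which lies beside Prg2 on chromosome 2, stood at 2381 and 2904 CPM, with the next highest class at 46.4 CPM (Ltf, late neutrophils) in Control and 56.7 (Gstm1/CD63) in the other library. Epx, on chromosome 11, stood at 1089 and 526 CPM, with no other compared class above 1.55. Ear6 and Ear1, both on chromosome 14, reached at most 2.74 and 0.444 CPM in any other class. Arsb, which encodes the lysosomal enzyme arylsulfatase B, stood at 384 and 683 CPM, and its highest other class was Fcnb, at 74.8 and 99.6. Ldhc, a lactate dehydrogenase subunit best known from testis, stood at 223 and 210 CPM, with at most 7.25 CPM elsewhere. The predicted gene Gm8113 was also in the group. Il15, which encodes a cytokine, stood at 85.2 and 72.8 CPM and at most 29.8 elsewhere.

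A second group was at least 4-fold over the mean but within 2-fold of at least 1 other class in Control. Cd63, a tetraspanin of granule membranes, stood at 2438 and 2204 CPM, and in Control the basophil and mast progenitors of the Prss34 class held 1684. Hdc, the enzyme that makes histamine, stood at 475 and 801 CPM against 379 in the Prss34 class of Control. Fam46a, a poly(A) polymerase, stood at 687 and 789.6 CPM and Ikzf2, the transcription factor Helios, at 353 and 437, with 549 and 390.2 in that same Prss34 class. Rnase12, of the ribonuclease A family, stood at 254 and 64.4 CPM against 205 there. Cebpe, the C/EBP factor of late granulocyte development, stood at 1110.1 and 980 CPM, and its highest other class was Ltf, at 704 and 556. These 6 genes therefore were high against most progenitors but within 2-fold of basophil progenitors in Control or, for Cebpe, late neutrophils.

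**Figure D1:**
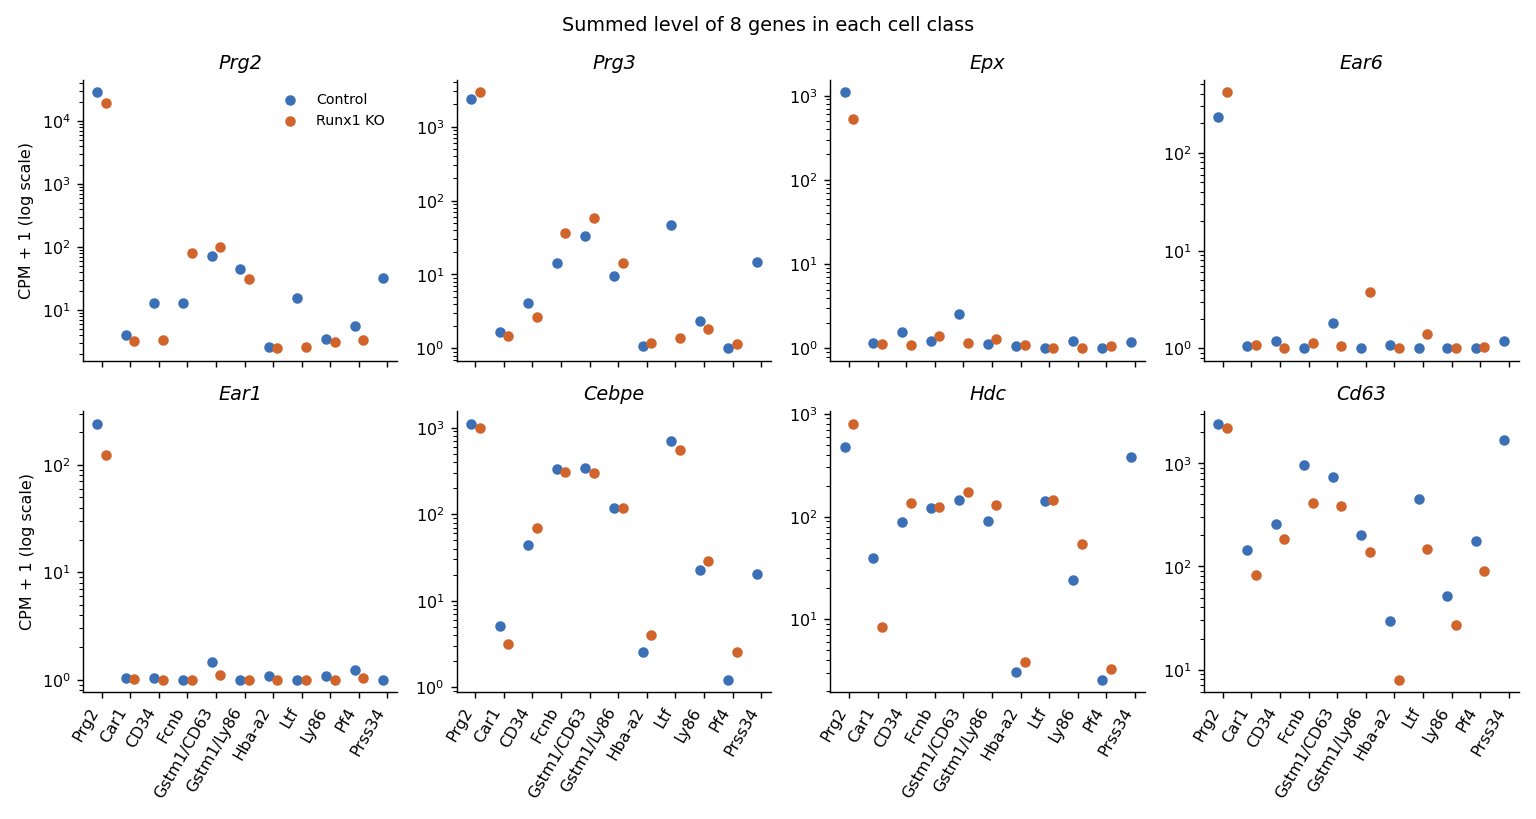
Summed level of 8 genes (CPM + 1, log axis) in the Prg2 class and 10 other classes, blue for Control and orange for the library labelled Runx1 KO, with classes of at least 20 cells in a library shown. Prg2, Prg3, Epx, Ear6 and Ear1 are highest in the Prg2 class in both libraries, while Cebpe is also high in the Ltf class and Hdc and Cd63 in the Prss34 class, which had 337 Control cells but only 1 cell in the other library and is drawn for Control only.

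Over the same 5476 genes the summed profile of the class was most like Prss34 (Spearman 0.881), CD34 early progenitors (0.875) and Gstm1/CD63 (0.868) in Control, and least like Hba-a2 later erythroid cells (0.659). In the library labelled Runx1 KO, where Prss34 held 1 cell and was not compared, the highest values were Gstm1/CD63 (0.813) and CD34 (0.803) and the lowest Ltf (0.603). These correlations are across genes, which are not replicates, and the smaller values in the second library go with fewer UMIs, 357143 against 669331 over the class.

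Genes of other lineages were found beside the eosinophil granule genes, some of them at levels also seen in unrelated classes. The neutrophil primary granule genes, such as Mpo for myeloperoxidase and Elane for neutrophil elastase, summed to 8819 and 6367 CPM, against 27457 and 25462 in the Gstm1/CD63 class. Mpo itself was found in 37 of 37 and 24 of 25 cells, at 4003 and 2876 CPM, while 55.2% and 39.8% of Car1 class cells also had a Mpo UMI, at 157 and 69.3 CPM. The secondary and tertiary granule genes of later neutrophils summed to 49.3 and 157 CPM, where the Ltf class held 377110.4 and 378252. The erythroid Car1 class held 33.6 and 168, so these sums do not set the Prg2 class apart. Basophil and mast cell genes summed to 2252 and 1582 CPM, and erythroid genes to 275 and 171, with 259 and 272 for erythroid genes in CD34. The lymphoid and antigen-presenting list came to 31.4 and 25.2 CPM, the macrophage list to 22.4 and 8.40, and the monocyte progenitor list to 130.0 and 143. In the Car1 class the lymphoid list came to 28.1 and 41.5. Of these lists the primary granule and basophil genes had the highest sums, and the lymphoid and macrophage genes the lowest. The basophil sums include Hdc, at 475 and 801 CPM, which is also among the genes at least 4-fold above the other classes. They include Cpa3 at 716 and 428, Mcpt8 at 356 and 11.2, and Prss34 at 263 and 5.60.

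**Figure D2:**
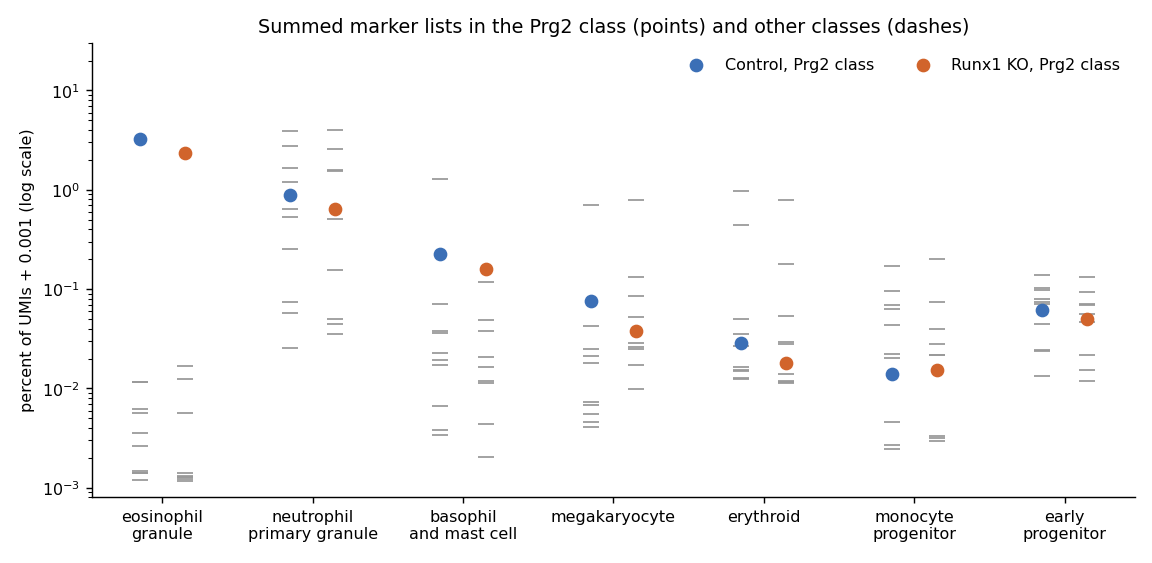
Summed share of UMIs (percent + 0.001, log axis) of 7 marker lists in the Prg2 class, as points in blue for Control and orange for the library labelled Runx1 KO, with other classes as grey dashes. The eosinophil granule list takes 3.28% and 2.33% of the UMIs of the class and lies far above every other class shown, while the other lists lie within the range of the other classes, apart from the basophil and mast cell list in the library labelled Runx1 KO, where the Prss34 class is not shown.

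Among the 62 cells the granule load varied widely. The 8 granule genes together took from 0.574% to 9.63% of a cell's UMIs in Control, with a median of 2.89%, and from 0.449% to 8.52%, with a median of 2.88%, in the library labelled Runx1 KO. The cells of the libraries therefore overlapped over almost the whole range, and their medians were nearly equal, while the sums over all cells were 3.28% and 2.33%. Cells with few UMIs carried more of them as granule RNA. In the library labelled Runx1 KO the median was 5.08% in the 8 cells under 5000 UMIs and 2.14% in the 17 others, and in Control it was 3.87% in 7 and 2.85% in 30. Spearman correlations of depth with granule share were -0.68 over the 25 cells and -0.10 over the 37; the share has the cell's depth in its denominator, and the cells of a library are not replicates.

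The cells under 5000 UMIs also differed in other RNA. Cytosolic ribosomal protein genes took 15.6% of their UMIs in Control and 15.5% in the other library, against 30.3% and 27.9% in the deeper cells. Ear6 stood at 838 and 2127 CPM in these cells against 207 and 304 in the deeper ones, and Arsb at 1275 and 2359 against 346 and 575. Thus in both libraries the shallow cells, as summed, were low in ribosomal protein RNA and high in these 2 genes. In Control the Ear6 value rested on few UMIs, as 1 shallow cell held 14 and no other more than 6. Single deeper Control cells held up to 34. At least 10% mitochondrial UMIs were found in 3 of the 7 shallow Control cells and 1 of the 8 shallow cells of the other library, and in no deeper cell. The part of these values in the granule share was not tested.

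Each Ear gene was found in part of the cells. Of the 62 cells, 32 had an Ear6 UMI and 17 an Ear1 UMI; 11 had both, 21 Ear6 only, 6 Ear1 only and 24 neither, so that 11 of the 17 Ear1 cells also had Ear6. At least 10 UMIs of Ear6 were found in 9 cells and of Ear1 in 5 cells, and 0 cells reached 10 UMIs of both, numbers too small to read a separation from. Those 5 cells held 178 of the 205 Ear1 UMIs of the class. Ear2, found in 10 Control cells and 3 cells of the other library, stood at 49.3 and 14 CPM, Ear14 had 1 UMI in all and Ear10 had 0. A gene with 0 UMIs could be present at up to 4.48 CPM in Control and 8.40 in the other library, the level of 3 UMIs. That bound is uncertain for Ear10, as 32.5% of its 75-base transcript stretches also occur in other Ear genes or pseudogenes. Ear1 and Ear2 are near-identical copies: of the 75-base stretches of their annotated transcripts (GENCODE M21), 39.3% and 23.4% also occur in another Ear gene or pseudogene, so their counts are uncertain, while 0 of the Ear6, Prg2, Prg3 and Epx stretches do.

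**Figure D3:**
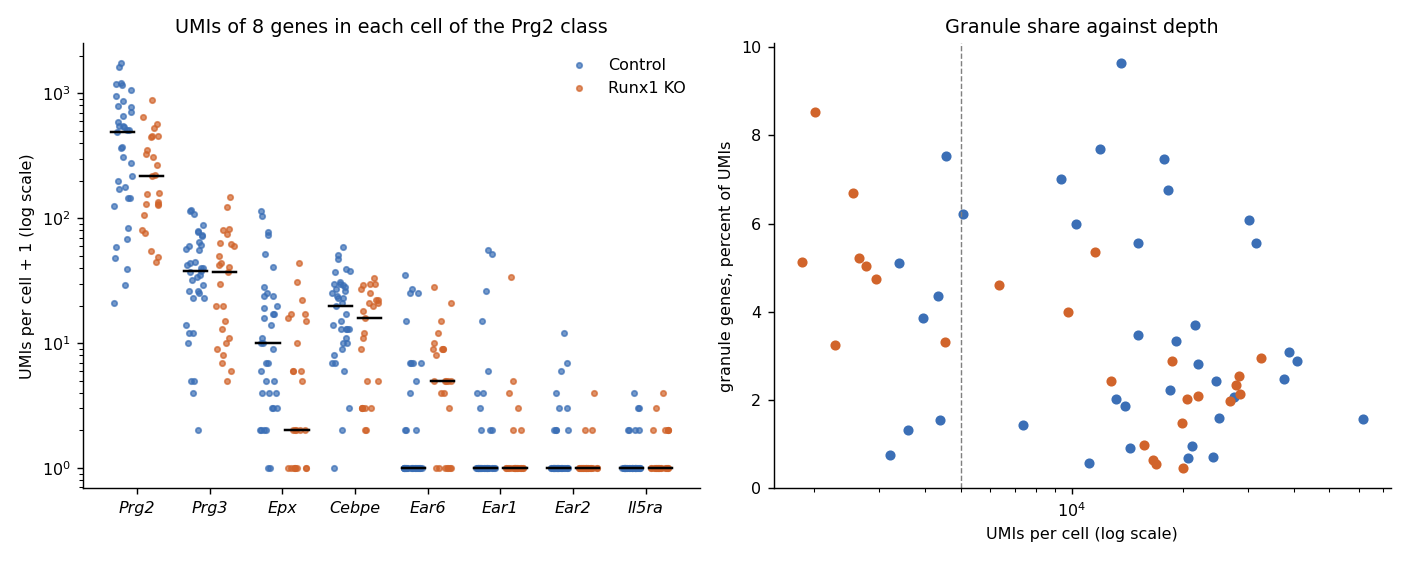
Left, UMIs per cell + 1 (log axis) of 8 genes in each of the 62 cells, blue for the 37 of Control and orange for the 25 of the library labelled Runx1 KO, with medians as black lines. Right, the granule genes as a percent of each cell's UMIs against its depth (log axis), with a dashed line at 5000 UMIs. The libraries overlap over almost the whole range of the share. Depth runs from 3213 to 61567 UMIs in Control and from 1854 to 32685 in the other library. The orange cells left of the line lie at 3.24% or more.

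Between the libraries, a gene was taken as measured from 100 UMIs in the class, summed over the libraries, and 30 CPM in the library where it was higher, which 1398 genes passed. Ratios set the library labelled Runx1 KO over Control, as log2 of CPM + 10, and the median over the measured genes was 0.05. At least 2-fold higher in the library labelled Runx1 KO were 11 genes (0.787%), and at least 2-fold lower 13 (0.930%). At the 1.5-fold level used for the lists, 77 genes (5.51%) were higher and 46 (3.29%) lower. With 1 library per genotype these counts describe the 2 libraries and say nothing of what other mice would show.

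Runx1, the gene named in the genotype label, stood at 188 CPM (157 to 224) in Control and at 524 (451 to 604) in the library labelled Runx1 KO, a log2 ratio of 1.43. Its UMIs were found in 31 of 37 and 23 of 25 cells. Other classes had log2 ratios of 1.49 in Gstm1/CD63, 1.41 in CD34, 1.37 in Pf4, 1.34 in Car1 and 0.93 in Ly86. UMIs read from the 3′ end do not show whether an inner part of the gene was deleted, so they do not check the label. Of the Runx family and its partner, Runx2 stood at 34.4 and 67.2 CPM, Runx3 at 97.1 and 89.6 and Cbfb at 77.7 and 95.2, each with fewer than 100 UMIs.

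The granule genes moved apart from one another. Of the 8 members 5 were measured, with a median log2 ratio of -0.58 beside 0.05 for all measured genes; 1 was at least 1.5-fold higher and 2 at least 1.5-fold lower, and 5 genes are too few to read against the shares of all genes. Per cell, Prg2 ran from 3407 to 85131 CPM with a median of 24579.8 in Control, and from 2397 to 77304 with a median of 23612 in the other library, so the cells overlapped almost wholly. Its summed ratio was 0.671 (0.653 to 0.69), while the log2 ratio of -0.58 shrank to -0.18 when each cell weighed the same and went to -0.83 when cells were thinned to 8000 UMIs. Prg2 in the deeper cells stood at 28724 and 17793 CPM, and in the cells under 5000 UMIs at 31540.2 and 43426. The Prg2 difference therefore had opposite signs in the deeper and the shallow cells.

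Epx had the largest decrease of the 5 measured granule genes as summed. Per cell it ran from 0 to 6047 CPM with a median of 678 in Control, and from 0 to 2697 with a median of 378 in the library labelled Runx1 KO. The cells overlapped, but 2 of 37 Control cells and 8 of 25 cells of the other library had no Epx UMI. The summed ratio was 0.483 (0.41 to 0.568), and it was below 1 in the deeper cells (1092 and 513 CPM). It was also below 1 in the shallow ones (1019.8 and 740), but no shallow cell held more than 9 Epx UMIs. The shallow values thus rest on few UMIs. Ear1 had a summed ratio of 0.512 (0.358 to 0.719) that rested on few cells, since 1 cell held 34.2% of its Control UMIs and 1 cell 75% of those in the other library. Without those 2 cells its log2 ratio was -2.04 in place of -0.91.

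Prg3 and Ear6 lay on the other side. Prg3 per cell had medians of 2358 and 2758 CPM, and its summed ratio was 1.22 (1.13 to 1.32). Ear6 had a median of 0 in Control, where 14 of 37 cells held it, and of 606 CPM in the library labelled Runx1 KO, where 18 of 25 did, with a summed ratio of 1.78 (1.41 to 2.24). The Ear6 log2 ratio was 0.80, and 0.53 without the cells under 5000 UMIs. With cells thinned to 8000 UMIs, which changes both the depth and the cells by leaving out 9 of each library, it fell to 0.09, and that of Prg3 from 0.28 to 0.05. Arsb, the lysosomal enzyme, had a log2 ratio of 0.82, and 0.56 in the thinned cells.

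Of the 18 transcription regulators of the lineage 6 were measured, with a median log2 ratio of 0.17; 2 were at least 1.5-fold higher, Runx1 and Xbp1, and 0 lower. Xbp1, a factor of the secretory pathway that eosinophil progenitors need, stood at 103 and 218 CPM with a ratio of 2.12 (1.51 to 2.97). Its log2 ratio was 1.01 here. In other classes it was smaller but also above 0, at 0.63 in Gstm1/CD63, 0.51 in Pf4, 0.47 in Ly86, 0.29 in CD34 and 0.25 in Car1. Cebpe had a ratio of 0.883 (0.775 to 1), with medians per cell of 1190.3 and 1044 CPM. Spi1, which encodes PU.1, had a log2 ratio of 0.09, Myb, the progenitor factor, of 0.25, and Cebpb of -0.35. The others had fewer than 100 UMIs: Gata1, the factor that can direct progenitors to the eosinophil fate, stood at 46.3 and 75.6 CPM (ratio 1.63, 0.937 to 2.83), Gata2 at 98.6 and 89.6, Zfpm1, a GATA-1 cofactor, at 44.8 and 22.4, Cebpa at 43.3 and 14, Gfi1 at 25.4 and 19.6, and Trib1 at 14.9 and 39.2. Id1 stood at 10.5 and 5.60 CPM. Irf8, a monocyte factor, had 9 UMIs in Control and 0 in the other library, and Id2 had 2 and 0. Of the 6 measured factors, Cebpe, Cebpb, Spi1 and Myb were thus within 1.5-fold and Xbp1 and Runx1 above it.

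Receptors and surface proteins had 19 members, of which 17 had a UMI in the class and 6 were measured, with a median log2 ratio of 0.29. The whole list summed to 1031 CPM in Control and 1434 in the library labelled Runx1 KO. That rise was not particular to the class. The sums were 751 and 1069 in CD34, 617 and 879 in Car1, and 973 and 1367 in Pf4. They differed less in Gstm1/CD63, at 719 and 826, and were nearly equal in Fcnb, at 810.2 and 812. Siglecf, an inhibitory lectin that marks eosinophils, was 1.5-fold higher or more, at 76.2 and 137 CPM (ratio 1.8, 1.19 to 2.72). Cd9, a tetraspanin, was lower, at 155 and 81.2, and 31.7% of its Control UMIs were in 1 cell; without the Control cell with the most Pf4 UMIs its log2 ratio went from -0.86 to -0.43. Fcgr3, a receptor for antibodies, had a log2 ratio of 0.55 and the integrin chain Itga4 one of 0.32. Outside the naming rule and picked after their values were seen were 2 receptor chains with fewer than 100 UMIs. Il1rl1, the receptor of interleukin 33, stood at 28.4 and 132 CPM (ratio 4.64, 2.67 to 8.36), in 15 of 37 and 19 of 25 cells, and Csf2rb, the chain shared by the receptors of interleukins 3 and 5 and of GM-CSF, at 56.8 and 171 (ratio 3.01, 1.97 to 4.64).

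The other lists had few measured members, apart from the secretory and cell cycle genes. Secretory pathway and ER folding genes had 12 of 19 members measured, all 12 within 1.5-fold, with a median of 0.13; Atf4, a stress factor, had the largest log2 ratio at 0.57, followed by the disulfide isomerase Pdia4 at 0.36, the chaperone cofactor Dnajc3 at 0.21 and calreticulin, Calr, at 0.18. Of the lipid mediator genes 2 of 12 were measured: Lta4h, which makes leukotriene B4, had a log2 ratio of 0.64 and Alox5ap, the helper of 5-lipoxygenase, of -0.18. Cytokines and chemokines had 1 of 17 measured, Tgfb1 at 0.25. TLR and NF-kB pathway genes had 2 of 24 measured, Irak1 at 0.44 and Nfkb1 at 0.26. S phase genes had 8 of 14 measured, all within 1.5-fold, with a median of 0.11, and Mcm5, Pcna, Mcm7 and Tyms had log2 ratios of 0.23, 0.23, -0.16 and 0.14. G2/M genes had 6 of 14 measured and a median of -0.40, with 2 lower, Cdk1 at -0.75 and Ube2c at -0.60; Birc5 and Mki67 had -0.50 and -0.30. For Ube2c 1 cell held 54.6% of the Control UMIs. Early progenitor genes had 3 of 9 measured, Sox4 at -0.59, Kit at 0.42 and Cd34 at -0.26, and the monocyte list had 1 of 8, Ms4a6c at 0.30. The immediate-early and heat shock genes and the sex-linked genes had 0 measured members.

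Neutrophil granule genes were lower in part. Of the 7 primary granule genes, all measured, 3 were at least 1.5-fold lower and 0 higher, with a median log2 ratio of -0.48. Elane per cell ran from 0 to 4634 CPM with a median of 475 in Control, and from 0 to 3021 with a median of 146 in the library labelled Runx1 KO, where 1 cell held 40.5% of its UMIs. Its summed ratio was 0.357 (0.293 to 0.433), with a log2 ratio of -1.46 here and from -0.84 in CD34 to 0.27 in Ly86 over 5 other classes. Nkg7 and Ctsg, a granule membrane protein and cathepsin G, had log2 ratios of -0.88 and -0.76, and Prtn3, proteinase 3, had 0.48. Prss57, a related protease, had -1.04.

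The largest decreases were in genes of basophils and mast cells. Of 11 members 5 were measured, 3 lower, 1 higher and a median of -0.73. Mcpt8, a basophil protease, had UMIs in 30 of 37 Control cells, with a median of 156 and a highest value of 3494 CPM, and in 3 of 25 cells of the other library, with a highest value of 118. The sums were 356 and 11.2 CPM, a ratio of 0.0315 (0.00851 to 0.0817). Prss34, another basophil protease, had 176 UMIs in 16 Control cells and 2 UMIs in 1 cell of the other library, a ratio of 0.0213 (0.00256 to 0.0781). Cpa3, the mast cell carboxypeptidase, differed less, at 716 and 428 CPM, and Hdc went the other way, at 475 and 801. Basophil genes thus did not all move one way, since the histamine enzyme was higher and Ms4a2, a chain of the IgE receptor, had -0.20.

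Other values moved with this. The Prss34 class itself had 337 Control cells but only 1 in the library labelled Runx1 KO. In Control, Car1 class cells with a Mcpt8 UMI were 4.71% and with a Prss34 UMI 4.93%, against 81.1% and 43.2% of the Prg2 class, and the corresponding shares in the Car1 class of the other library were 0.366% and 0%. In the Gstm1/CD63 class Mcpt8 stood at 44.6 and 8.52 CPM, and in Ly86 at 13.7 and 18.5. The part of the Prss34 class, and of RNA from its cells, in the Prg2 class values was not tested. Rnase12, Fcer1g, the signalling chain of Fc receptors, and Ifitm1, an interferon-induced membrane protein, were also lower, with log2 ratios of -1.83, -1.98 and -2.96. Ifitm1 was high in the Prss34 class of Control too, at 2028 CPM, and it had log2 ratios of -3.69 in Car1 and from -0.83 to 0.30 in CD34, Gstm1/CD63, Ly86 and Pf4.

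One Control cell decided 1 of these decreases. It had 40781 UMIs, the second most of the Control cells of the class, and held 305 of the 315 Pf4 UMIs (96.8%), where Pf4 encodes platelet factor 4 of megakaryocytes. It also held 64 of 176 Prss34 UMIs, 41 of 238 Mcpt8 UMIs, 32 of 41 Car1 UMIs and 4 of 4 Vwf UMIs, beside 1060 of Prg2 and 51 of Epx. Without it Pf4 stood at 15.9 CPM in Control, below the 33.6 of the other library, while Prss34 and Mcpt8 stood at 178 and 313. The megakaryocyte list, with 2 of 11 measured members, had a median log2 ratio of -1.67 with the cell and 0.21 without it, from Itga2b alone. Whether this barcode held more than 1 cell was not tested.

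**Figure D4:**
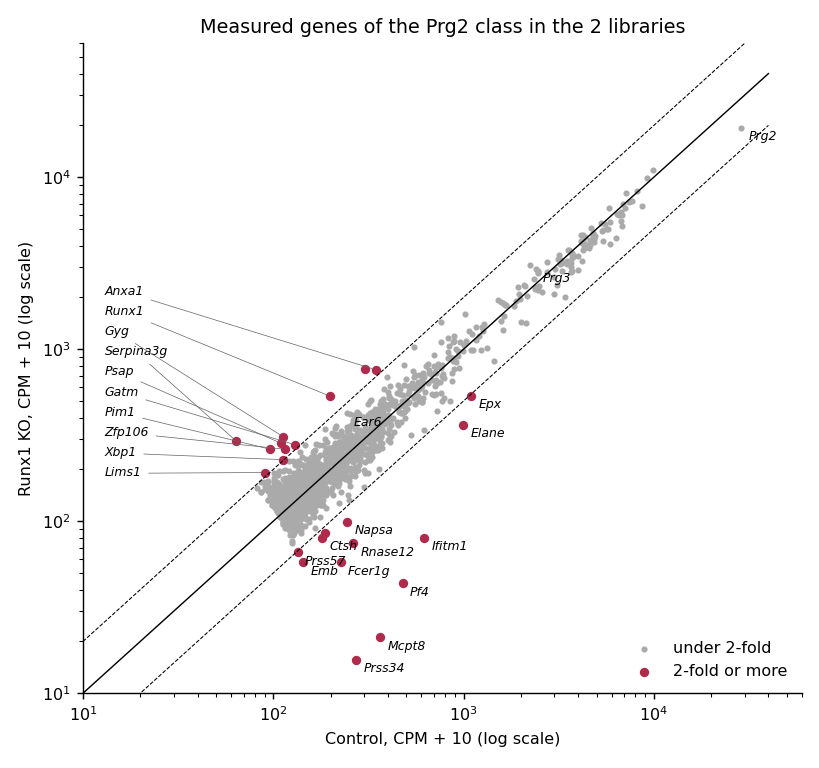
Levels of the 1398 measured genes in the Prg2 class, Control on the x axis and the library labelled Runx1 KO on the y axis (CPM + 10, log axes), with the diagonal as a solid line and 2-fold as dashed lines. Red points are the 24 genes at 2-fold or more, 11 above and 13 below, with Prss34, Mcpt8 and Pf4 farthest below and Serpina3g farthest above; Prg2, Prg3 and Ear6 lie within the lines.

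Of the genes higher in the library labelled Runx1 KO, some were also higher in other classes. Serpina3g, a protease inhibitor, stood at 53.8 and 283 CPM (ratio 5.26, 3.56 to 7.92), with a log2 ratio of 2.20 here and from 0.91 in Pf4 to 2.17 in Car1 over 5 other classes. Pim1, a kinase induced by cytokines, stood at 86.7 and 252 CPM, with 1.44 here and from 1.24 in CD34 to 1.88 in Pf4. Serpina3g, Pim1 and Ifitm1 belong to a list of 10 genes that had been seen to differ between these libraries in several other classes, which is no independent evidence; 6 were measured, 2 higher and 2 lower, among them Lgals1, a galectin, at -0.63.

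Others had smaller ratios in the Gstm1/CD63, CD34, Ly86, Car1 and Pf4 classes. Gyg, the primer of glycogen synthesis, stood at 103 and 299.6 CPM, with a log2 ratio of 1.45 here and from 0.33 to 0.79 in those 5 classes. Psap, the precursor of lysosomal saposins, stood at 100.1 and 274 CPM, with 1.37 here and from 0.11 to 0.75 there. Zfp106, a zinc finger protein, had 1.17 here and from -0.10 to 0.25 there. Gatm, the first enzyme of creatine synthesis, had 1.11 here and from -0.40 to 0.46 there, and Lims1, a focal adhesion adaptor, had 1.08 here and from 0.07 to 0.80 there. Mgat5, a glycosyltransferase, had 0.98 here but 1.25 in Car1. Anxa1, which encodes annexin A1, had 1.14, but 1 cell held 34.0% of its UMIs in the library labelled Runx1 KO, and without the top cell of each library it had 0.78. In the Fcnb class Anxa1 was higher in that library too, at 270.1 and 578 CPM. Whether the differences between classes exceed the spread between mice could not be tested.

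The remaining decreases were Emb, an adhesion protein, at -1.33, Napsa, an aspartic protease, at -1.30, and Ctsh, the lysosomal cathepsin H, at -1.17. Ctsh stood at 170.3 and 70.0 CPM here and at 19.3 and 6.07 in Gstm1/CD63, with 65.4 and 66.2 in Ly86, a log2 ratio of 0.02, and at most 4.31 CPM in CD34, Car1 and Pf4. The predicted gene Gm8113 was the last of the 13.

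Outside the class, the cells with many granule UMIs were mostly labelled Gstm1/CD63, the neutrophil progenitor class. Cells of other classes with at least 100 UMIs of Prg2, Prg3 and Epx together numbered 7 in Control and 12 in the library labelled Runx1 KO, of which 4 and 10 were in Gstm1/CD63. They held 11 and 3 UMIs of Epx in all, and Cebpe in every one of them. Their Elane stood at 904 and 1249.7 CPM, against 988 and 353 in the Prg2 class and 7389 and 5801 in Gstm1/CD63. Their Mpo stood at 3807 and 3836 CPM, against 4003 and 2876 in the Prg2 class. Whether these cells belong with the Prg2 class was not tested. At a minimum of 20 UMIs there were 26 and 31 such cells. Counting all cells with at least 100 of these UMIs whatever their class gave 40 and 33, and a ratio of shares of 0.722 (0.441 to 1.17). Across the 18 class sums of the 9 other classes with 50 cells in both libraries, the genes most like Prg2 were Nkg7 and Cep350 (Spearman 0.88), Csgalnact2 (0.86), Pam (0.85), Ankrd28, Impdh1 and Hspa13 (0.84), and Tuba4a, Gnpnat1 and Prg3 (0.83). These sums share libraries and depth, and the Prg2 class is not among them, so the list describes the low Prg2 levels elsewhere.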

How the data were processed

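The deposited matrix holds counts, UMIs per gene and cell, made by the authors with Cell Ranger on the mm10 build, per the submitters' processing notes, without versions or settings. The deposited cell annotation gives counts of UMIs and genes, the mitochondrial fraction, a size factor that is a ratio, and other values, the library and the class; the method behind the classes is not stated. The library called wild type there was taken as Control. Of 31053 gene identifiers 31011 matched GENCODE M21.

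No doublet caller was run and no cell was removed. UMIs were summed per library and class and scaled to CPM; ratios add a pseudocount of 10 CPM. Depth was 162278272 UMIs in Control (median 21594 per cell) and 145590840 in the other library (median 16092); cells with at least 10% mitochondrial UMIs numbered 189 and 325. Shares carry Clopper-Pearson and ratios exact conditional binomial 95% intervals. Members and lists were chosen with earlier results of these data known. Genes were named by rule: all granule and transcription regulator list members, up to 20 highest over other classes, the 12 highest and 12 lowest between libraries, and up to 4 measured members of every other list by size of ratio; predicted, sex-linked and mitochondrial genes were not ranked. A gene that the rule names is not reported here. Likeness to Prg2 used the 10 highest Spearman correlations. Alternatives varied the pseudocount, minimum, cell filters, weighting, scaling and thinning. The ratios and intervals were computed on counts simulated under the same counting model, without spread between cells. That checks the computation only. Analysis used Python 3.11.15, NumPy 2.4.6, SciPy 1.17.1, pandas 2.3.3 and Matplotlib 3.10.9.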

Additional observations from a re-analysis of the deposited data

How the results depend on the processing

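The counts of genes moved with the minimum: 70 higher and 59 lower at 30 UMIs, and 3 and 5 at 200 UMIs. Weighting cells equally gave 28 higher and raised the share of higher genes among those past 2-fold from 45.8% to 66.7%; 8 of the 11 genes were among the 28. Thinning to 8000 UMIs, which kept 28 Control cells and 16 others, gave 3 higher and 4 lower. A pseudocount of 1 CPM gave 27 genes above the other classes. The granule median was -0.74 at 30 UMIs, -0.18 with cells weighted equally, -0.39 thinned, -0.63 scaled by the median ratio and, added after the data were seen, -0.69 without cells under 5000 UMIs. The megakaryocyte median turned to 0.12 at 30 UMIs, 0.15 without the top cell of each gene, and 0.21 without the Control cell with the most Pf4 UMIs, also added later. Other list medians changed sign on few members: lipid mediators to -0.21 at 30 UMIs, G2/M to 0.05 at 200 UMIs and 0.57 (1 gene) thinned, S phase to -0.02 without top cells, and the genes that differ in several other classes to -0.26 at 200 UMIs and -0.47 thinned. The cause was not tested. Of the named genes, Itga2b (-0.15), Mcm7 (0.31), Nfkb1 (-0.07) and Spi1 (-0.04) changed sign with cells weighted equally, and Pf4 turned higher without the Control cell that holds most of it, where it fell below the minimum; no other named gene changed sign while measured. A further alternative, added later, counted cells of any class by their granule UMIs. No paired analysis was possible because each genotype had 1 library. With 62 cells, the minimum of 100 UMIs stands for about 97.4 CPM over both libraries, so genes below it did not enter the counts and medians.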
